A study of Mus musculus with 8 samples.

Results

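Gene expression of 10 genes of semaphorin signalling was followed in mouse heart ventricles at stage E14.5 of embryonic development, out of 13869 genes in the table. They are the ligand genes Sema3a, Sema3b, Sema3c, Sema3d, Sema3f and Sema3g and the receptor genes Nrp1, Nrp2, Plxnc1 and Plxnd1. The set was chosen by gene name with the mutant minus wild-type differences of these libraries in view. Its values in that contrast are therefore a description, and nothing is inferred from how many of the set differed. The mutant group, labelled Mib1flox; TnT-Cre, carries a floxed Mib1 allele and Cre recombinase driven by the cardiac troponin T promoter, which is active in cardiomyocytes. The labels do not say how many floxed alleles an embryo had. The other group holds WT siblings, and whether any of them carried Cre or a floxed allele is not stated. The series text names 16 hearts of each genotype, whose ventricles were combined into pools. Each group has 4 libraries of polyadenylated RNA, so a library is a pool and not an embryo. Nothing in the labels ties the pools to litters, and the p values below measure the spread between pools.

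Class 3 semaphorins are secreted guidance proteins. Most bind a neuropilin, which holds the ligand, and signal through a plexin, which carries the message into the cell and acts on small GTPases and the cytoskeleton. Neuropilins also bind vascular endothelial growth factors. In the developing heart this system is known for patterning sympathetic nerves, the outflow tract, the coronary vessels and the endocardium. Plexin C1 stands apart in the set, since its known ligand is the membrane-anchored semaphorin encoded by Sema7a.

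RefSeq (GRCm38.p6) gave an upstream window for 8 of the 10 genes. Windows of 250 bases before the transcription start are printed for Sema3a, Sema3g and Plxnc1, because their transcripts were lower in the mutants, and for Sema3c, because its transcript was not. Capitals mark TGGGAA, the core bound by RBPJ, the DNA-binding factor of the Notch pathway. The windows are chr5:13396534-13396783 (plus strand) for Sema3a, chr14:31217623-31217872 (plus strand) for Sema3g, chr10:94944846-94945095 (minus strand) for Plxnc1 and chr5:17574566-17574815 (plus strand) for Sema3c.
Sema3a: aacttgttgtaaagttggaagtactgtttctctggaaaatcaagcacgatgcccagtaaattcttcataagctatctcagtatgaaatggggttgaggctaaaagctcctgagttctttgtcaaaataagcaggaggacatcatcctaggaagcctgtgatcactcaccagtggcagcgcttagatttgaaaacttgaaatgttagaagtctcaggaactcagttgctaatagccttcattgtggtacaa
Sema3g: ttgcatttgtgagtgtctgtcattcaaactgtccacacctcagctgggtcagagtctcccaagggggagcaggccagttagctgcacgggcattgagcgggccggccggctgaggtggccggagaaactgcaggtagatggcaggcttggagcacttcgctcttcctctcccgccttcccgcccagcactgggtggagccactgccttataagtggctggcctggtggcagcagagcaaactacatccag
Plxnc1: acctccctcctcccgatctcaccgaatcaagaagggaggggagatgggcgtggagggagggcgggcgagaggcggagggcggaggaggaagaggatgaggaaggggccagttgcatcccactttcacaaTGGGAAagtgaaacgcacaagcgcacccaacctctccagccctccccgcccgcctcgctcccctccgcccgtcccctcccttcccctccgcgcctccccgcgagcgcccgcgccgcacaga
Sema3c: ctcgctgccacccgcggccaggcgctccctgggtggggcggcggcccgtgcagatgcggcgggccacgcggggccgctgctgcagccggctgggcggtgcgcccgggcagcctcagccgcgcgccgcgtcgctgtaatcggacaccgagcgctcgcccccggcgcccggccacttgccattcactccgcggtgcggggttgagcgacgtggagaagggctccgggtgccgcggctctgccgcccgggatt

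TGGGAA or its reverse complement TTCCCA occurred in 1 of the 8 windows, that of Plxnc1, where it begins 121 bases before the start. Among all 32841 RefSeq windows of this length, 21.6% held it. The E-box CACGTG, a palindrome that basic helix-loop-helix factors bind, occurred in 0 of the 8 windows and in 6.02% of all windows. The letters of the motifs can share bases where they abut, and 0 of the 8 windows held both. The windows differ in base composition: that of Sema3a has a GC content of 40.8% and 2 CpG dinucleotides, and that of Sema3c 78.4% and 39. The median window has a GC content of 52.4% and 6 CpG dinucleotides. Windows of Plxnc1 and Sema3g lie between these, at 68.8% and 60.4%. A match describes letters in these windows only.

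The 8 libraries held 6307634 to 11506082 recovered counts, and a floor of 3 counts corresponds to 0.265 to 0.472 CPM, where CPM is the count scaled to a normalized library of 1000000. Mib1, the targeted gene, stood at 100 ± 5.33 CPM in mutants and 161 ± 7.48 CPM in wild type (SD, n = 4), with no overlap; the counts cover the whole gene and other cell types than cardiomyocytes. The cardiomyocyte marker Tnnt2 was abundant in all libraries, at 3490 ± 106 CPM in mutants and 4020 ± 141 CPM in wild type (SD, n = 4). Its mutant libraries all lay below its wild-type libraries, at −0.21 ± 0.05 on the log2 scale (SE; adjusted p = 0.0658 by limma), not called. Tnnt2 was called lower in 3 of the alternative fits, and stood at −0.11 with quantile scaling. Of 9 general cardiomyocyte markers 0 were called by limma, with 0 higher and 2 lower at an unadjusted p under 0.05 and 1 called lower with voom weights. Of 7 compact myocardium markers 3 were called higher and 0 lower, of 9 smooth muscle and pericyte markers 2 higher and 1 lower, and of 8 fibroblast and cushion markers 0 higher and 1 lower. Of 5 neural and neural crest markers tested 0 were called by limma, with 1 higher and 1 lower at an unadjusted p under 0.05 and 0 with voom weights. For comparison with these and later marker lists, limma called 0.99% of all 13740 genes tested higher and 1.25% lower. Of the same 13740 genes, 954 were higher and 1079 lower at an unadjusted p under 0.05. Pecam1 and Cdh5 of endothelial cells stood at −0.11 ± 0.05 and −0.14 ± 0.04 on the log2 scale (SE), not called. Ventricles mix cell types, so fewer cells of a type and less RNA per cell cannot be told apart in any value below.

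In the whole-table comparison by limma, called means an adjusted p under 0.05 (Benjamini-Hochberg) over 13740 genes. All 10 members passed the filter on low values. Of these, 4 were called lower in the mutants, the ligand genes Sema3a, Sema3b and Sema3g and the receptor gene Plxnc1, and 0 were called higher. Over all genes tested 2.24% were called, 1.25% lower and 0.99% higher. The set was picked with this contrast known, so nothing is read from that difference. The groups did not overlap, with mutants lower, in 6 members, where Nrp2 and Plxnd1 join the 4, and in 4.63% of all genes. They did not overlap with mutants higher in 0 members and 4.26% of all genes. The median log2 difference of mutant over wild type was −0.25 over the 6 ligand genes, −0.22 over the 4 receptor genes and 0 over all genes. The member nearest to the threshold among those called was Sema3g (adjusted p = 0.0303 by limma), and the nearest among those not called was Nrp2 (adjusted p = 0.0636 by limma).

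**Figure D1:**
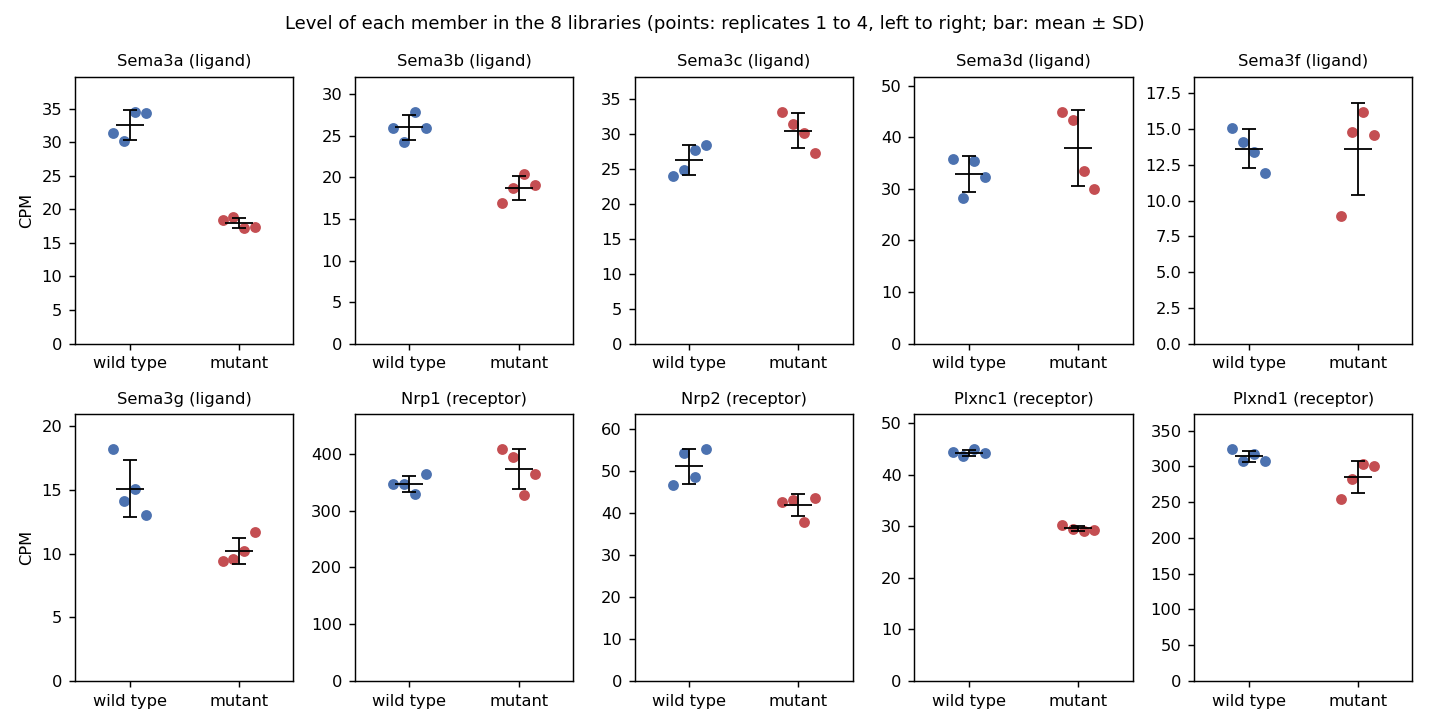
Level in CPM of each of the 10 members (panels, linear axes from 0) in the 4 wild-type (blue) and 4 mutant (red) libraries; points are libraries, the bar is the mean with its SD. Wild type and mutants do not overlap for Sema3a, Sema3b, Sema3g, Nrp2, Plxnc1 and Plxnd1.

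Sema3a encodes the secreted ligand of neuropilin 1 and A-type plexins that repels growing axons and that trabecular myocardium is known to express. Sema3a (ENSMUSG00000028883) stood at 31.3, 30.1, 34.5 and 34.4 CPM in wild-type replicates 1 to 4. In mutant replicates 1 to 4 it stood at 18.4, 18.8, 17.2 and 17.4 CPM. Every mutant library lay below every wild-type library, with a wide gap between the groups. It fell 1.81-fold, by 0.85 on the log2 scale (SE 0.08, 95% interval −1.02 to −0.68), and was called in all 8 fits that left a library out. The counts behind these values ran from 115 to 281. Markers of trabecular myocardium were lower in the same libraries. Of 10 such genes 5 were called lower and 0 higher, and their summed level was 619 to 709 CPM in mutants against 1670 to 1780 CPM in wild type, with 0 of the 10 at 0 counts. Their part in the Sema3a difference was not tested.

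Sema3b, which encodes a ligand of neuropilins 1 and 2, was the second ligand gene that fell. Sema3b (ENSMUSG00000057969) stood at 25.9, 24.3, 27.9 and 26 CPM in wild type and 16.9, 18.7, 20.4 and 19.1 CPM in mutants. The highest mutant library was below the lowest wild-type library. It fell 1.39-fold, by 0.47 on the log2 scale (SE 0.08, 95% interval −0.66 to −0.29), and was called in all 8 fits that left a library out.

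Sema3g encodes a ligand that binds neuropilin 2 and that arterial endothelium is known to express. Sema3g (ENSMUSG00000021904) stood at 18.2, 14.1, 15.1 and 13 CPM in wild type and 9.43, 9.54, 10.2 and 11.7 CPM in mutants. The groups did not overlap, but wild-type replicate 4 and mutant replicate 4 lay close together. It fell 1.47-fold, by 0.55 on the log2 scale (SE 0.12, 95% interval −0.82 to −0.29), on 68 to 127 counts per library. The call was lost in 5 of the 8 fits that left a library out, those without mutant replicate 1 or 2 or wild-type replicate 1, 2 or 3, with adjusted p values by limma from 0.0652 to 0.111. Endothelial markers were lower in the same libraries, 3 of 14 pan-endothelial genes being called lower and 0 higher. Their summed level was 1360 to 1440 CPM in mutants and 1570 to 1630 CPM in wild type, with 0 of the 14 at 0 counts. Their part in the Sema3g difference was not tested.

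The other ligand genes were not called. Sema3c, whose product guides neural crest cells into the outflow tract and uses plexin D1, stood at 23.9, 24.8, 27.7 and 28.4 CPM in wild type. Its mutant libraries stood at 33.1, 31.3, 30.1 and 27.2 CPM. The lowest mutant library lay within the wild-type range and the other mutant libraries lay above it. The log2 difference of Sema3c (ENSMUSG00000028780) was 0.21, with a 95% interval of 0.03 to 0.4.

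Sema3d, known for patterning veins, stood at 35.7, 28.2, 35.4 and 32.2 CPM in wild type and 44.9, 43.3, 33.4 and 30 CPM in mutants. Mutant replicates 1 and 2 were above all wild-type libraries, and mutant replicates 3 and 4 were among them. The log2 difference of Sema3d (ENSMUSG00000040254) was 0.19, with a 95% interval of −0.07 to 0.45.

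Sema3f, whose product prefers neuropilin 2, stood at 15.1, 14.1, 13.4 and 11.9 CPM in wild type and 8.91, 14.8, 16.2 and 14.6 CPM in mutants. Mutant replicate 1 was the lowest of all 8 libraries, mutant replicate 3 was the highest, and the other mutant libraries lay within the wild-type range. The log2 difference of Sema3f (ENSMUSG00000034684) was −0.03, with a 95% interval of −0.38 to 0.32, and it stood at 0.16 without mutant replicate 1. Epicardial markers gave 0 calls among 9 genes in limma, with 3 higher and 0 lower at an unadjusted p under 0.05 and 0 calls with voom weights. Their sum was 229 to 261 CPM in mutants and 214 to 228 CPM in wild type, with 0 of the 9 at 0 counts. Whether they bear on Sema3c and Sema3d was not tested.

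The shares that the 6 ligand genes held in their sum are tied together, so a lower share of some genes raises those of others. To compare genes with each other, CPM was divided by exon length (CPM per kb, union of annotated exons in GENCODE M21). The sum over the 6 ligand genes was 29.5, 26.9, 30.1 and 28.3 CPM per kb in wild type and 24.2, 25.9, 25.1 and 23.7 CPM per kb in mutants. Sema3a made up 17% to 19.5% of this sum in wild type and 11% to 12.2% in mutants, and Sema3b 23.7% to 25% and 18.8% to 21.9%. The share of Sema3c was 14.7% to 18.2% in wild type and 20.9% to 24.8% in mutants, and that of Sema3d 14.2% to 16.3% and 17.1% to 25%. The shares of the other 2 overlapped, at 12% to 15.1% in wild type and 10.5% to 18.4% in mutants for Sema3f, and at 10.1% to 13.5% and 8.1% to 10.9% for Sema3g. A share can grow with no growth of the gene's own level. In CPM, Sema3c and Sema3d overlapped between the groups, and neither was called. Within a library the ratio of Sema3c to Sema3a per kb, which does not depend on the scaling between libraries, was 0.868, 0.933, 0.912 and 0.937 in wild type. In mutants it was 2.04, 1.89, 1.98 and 1.77. Sema3a was thus the higher of this pair in every wild-type library and Sema3c in every mutant library. Taking the longest transcript as the length gave mean ratios of 0.869 ± 0.0304 and 1.83 ± 0.114 (SD, n = 4). This pair joins the ligand genes of lowest and highest log2 difference, −0.85 and 0.21. The ratio of Sema3d to Sema3a was 0.788 to 0.962 in wild type and 1.45 to 2.05 in mutants. With the longest transcript it was 0.88 to 1.07 and 1.62 to 2.29, so Sema3a was not the higher in every wild-type library.

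**Figure D2:**
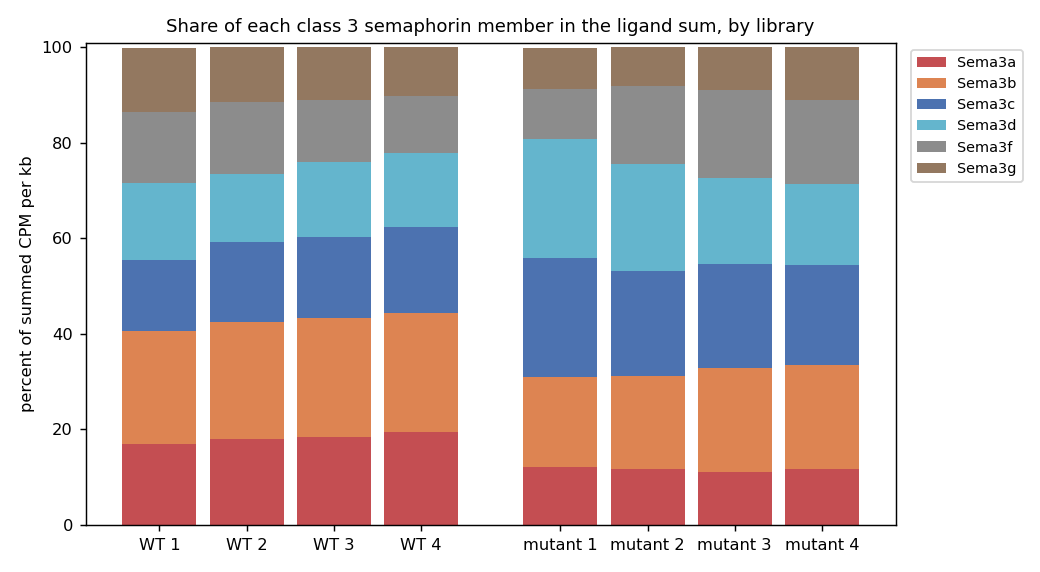
Percent of the summed CPM per kb of the 6 class 3 semaphorin members that each gene holds (stacked colours, linear axis), for the 4 wild-type (WT) and 4 mutant libraries. The Sema3a segment spans 17% to 19.5% in wild type and 11% to 12.2% in mutants.

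Nrp1 encodes neuropilin 1, the receptor subunit for Sema3a and a coreceptor of vascular endothelial growth factor, and was the most abundant member. Nrp1 (ENSMUSG00000025810) stood at 347, 347, 330 and 364 CPM in wild type and 408, 394, 327 and 364 CPM in mutants. The groups overlapped, mutant replicates 1 and 2 being above all wild-type libraries and mutant replicate 3 below them. The log2 difference was 0.1, with a 95% interval of −0.04 to 0.24, not called.

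Nrp2 encodes neuropilin 2, which veins and lymphatic vessels are known to express. Nrp2 (ENSMUSG00000025969) stood at 46.6, 54.1, 48.5 and 55.1 CPM in wild type and 42.5, 43, 37.9 and 43.6 CPM in mutants. All mutant libraries lay below all wild-type libraries. The log2 difference was −0.29 ± 0.07 (SE; 95% interval −0.45 to −0.13), short of the threshold, and it was called in 1 alternative, robust variance estimation (adjusted p = 0.045 by limma). Of 8 venous and lymphatic endothelial markers 1 was called lower and 0 higher, and their sum was 373 to 383 CPM in mutants and 410 to 431 CPM in wild type, with 0 of the 8 at 0 counts. Their part was not tested. The ratio of Nrp1 to Nrp2 per kb was 21.5, 18.5, 19.6 and 19 in wild type and 27.7, 26.4, 24.9 and 24.1 in mutants. The transcript ratio of Nrp1 to Nrp2 was thus higher in every mutant library than in any wild-type library. With the longest transcript as the length it was 12 to 13.9 in wild type and 15.6 to 17.9 in mutants. This pair joins the receptor gene of highest log2 difference, Nrp1 at 0.1, to one below 0, Nrp2 at −0.29. Neither was called in the main fit.

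Plxnd1 encodes plexin D1, an endothelial receptor that Sema3e binds directly and that Sema3c uses with neuropilins. Plxnd1 (ENSMUSG00000030123) stood at 324, 307, 317 and 308 CPM in wild type and 255, 282, 304 and 301 CPM in mutants. No mutant library reached the wild-type range, but mutant replicates 3 and 4 lay just below it. The log2 difference was −0.14, with a 95% interval of −0.26 to −0.02, not called, and lay between −0.17 and −0.09 with a library left out. The endothelial markers given beside Sema3g were lower in these libraries too. Of 7 endocardial markers, 4 were called lower and 0 higher, and their sum was 436 to 463 CPM in mutants and 553 to 579 CPM in wild type, with 0 of the 7 at 0 counts. Their part was not tested.

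Plxnc1 encodes plexin C1, the receptor of the Sema7a product. Plxnc1 (ENSMUSG00000074785) stood at 44.5, 43.6, 45 and 44.3 CPM in wild type and 30.3, 29.6, 29.2 and 29.4 CPM in mutants. Libraries of a group lay within 2 CPM of each other and the groups were far apart. It fell 1.5-fold, by 0.58 on the log2 scale (SE 0.06, 95% interval −0.71 to −0.45), and was called in all 8 fits that left a library out. The coefficient of variation was 1.33% in wild type and 1.68% in mutants, below the 5.49% and 6.42% that counting alone gives at 195 to 393 counts. Its ligand gene Sema7a stood at 17 to 19.3 CPM in wild type and 13 to 16.9 CPM in mutants. The highest mutant library was just below the lowest wild-type library, and the log2 difference of Sema7a was −0.29 ± 0.1 (SE; adjusted p = 0.186 by limma), not called. Of 10 macrophage markers 3 were called lower and 0 higher, with a sum of 74.4 to 93.7 CPM in mutants and 111 to 132 CPM in wild type and 0 of the 10 at 0 counts. Of 8 erythroid markers 2 were called lower and 0 higher, with a sum of 1850 to 3090 CPM in mutants and 2880 to 3950 CPM in wild type and 0 of the 8 at 0 counts. Their part in the Plxnc1 difference was not tested.

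Per kb of exon, receptor genes outweighed ligand genes in every library. In wild type Nrp1 stood at 96.5 ± 3.87 CPM per kb and Plxnd1 at 45.5 ± 1.16 (SD, n = 4), each separated from its neighbours in the order. Sema3b followed at 7.03 ± 0.393 and Plxnc1 at 6.08 ± 0.0807, and these too did not overlap the next gene. Below them Sema3a at 5.23 ± 0.356, Nrp2 at 4.92 ± 0.403, Sema3c at 4.77 ± 0.397, Sema3d at 4.44 ± 0.476, Sema3f at 3.9 ± 0.394 and Sema3g at 3.32 ± 0.492 formed a run in which each gene overlapped the next. In mutants Sema3a stood at 2.89 ± 0.125 CPM per kb, rank 9 in place of rank 5, and Sema3c at 5.54 ± 0.453, rank 3 in place of rank 7. These mutant ranks are not separated from their neighbours, since Sema3c at 4.95 to 6.02 CPM per kb overlapped Sema3d at 4.06 to 6.06 and Sema3b at 4.57 to 5.49, and Sema3a at 2.76 to 3.02 overlapped Sema3f at 2.55 to 4.63. The order depends on the length used: with the longest transcript Nrp2 took rank 4 in wild type and overlapped Sema3b at rank 3. Sema3a then had rank 6 in wild type and rank 9 in mutants, and Sema3c rank 8 and rank 5. The sum of the 4 receptor genes was 148 to 157 CPM per kb in wild type and 143 to 159 in mutants, overlapping, while the ligand sums given above did not overlap. The ratio of receptors to ligands was 4.94 to 5.67 in wild type and 5.68 to 6.54 in mutants. The gap between these ranges was small, and with the longest transcript as the length they overlapped, at 4.73 to 5.45 and 5.43 to 6.2. The ratio covers the members only. It leaves out the A-type plexins, such as Plxna1 and Plxna4 at 104 and 89.6 CPM in wild type. It includes Plxnc1, whose known ligand is the Sema7a product, so it is not a balance of all class 3 ligands and their receptors.

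Some members are neighbours in the genome. In RefSeq's gene order on chromosome 5, Sema3d and Sema3a have 0 protein-coding genes between them, and they stood at 0.19 and −0.85 on the log2 scale. On chromosome 9, Sema3f and Sema3b are separated by 3 protein-coding genes, and they stood at −0.03 and −0.47. Of these 3, Gnai2 stood at −0.12 ± 0.05 (SE; adjusted p = 0.278 by limma), Slc38a3 at −0.23 ± 0.25 (SE; adjusted p = 0.728 by limma), and Gnat1 was not tested. Exons of the 10 genes overlapped those of no other gene of the table in GENCODE M21.

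**Figure D3:**
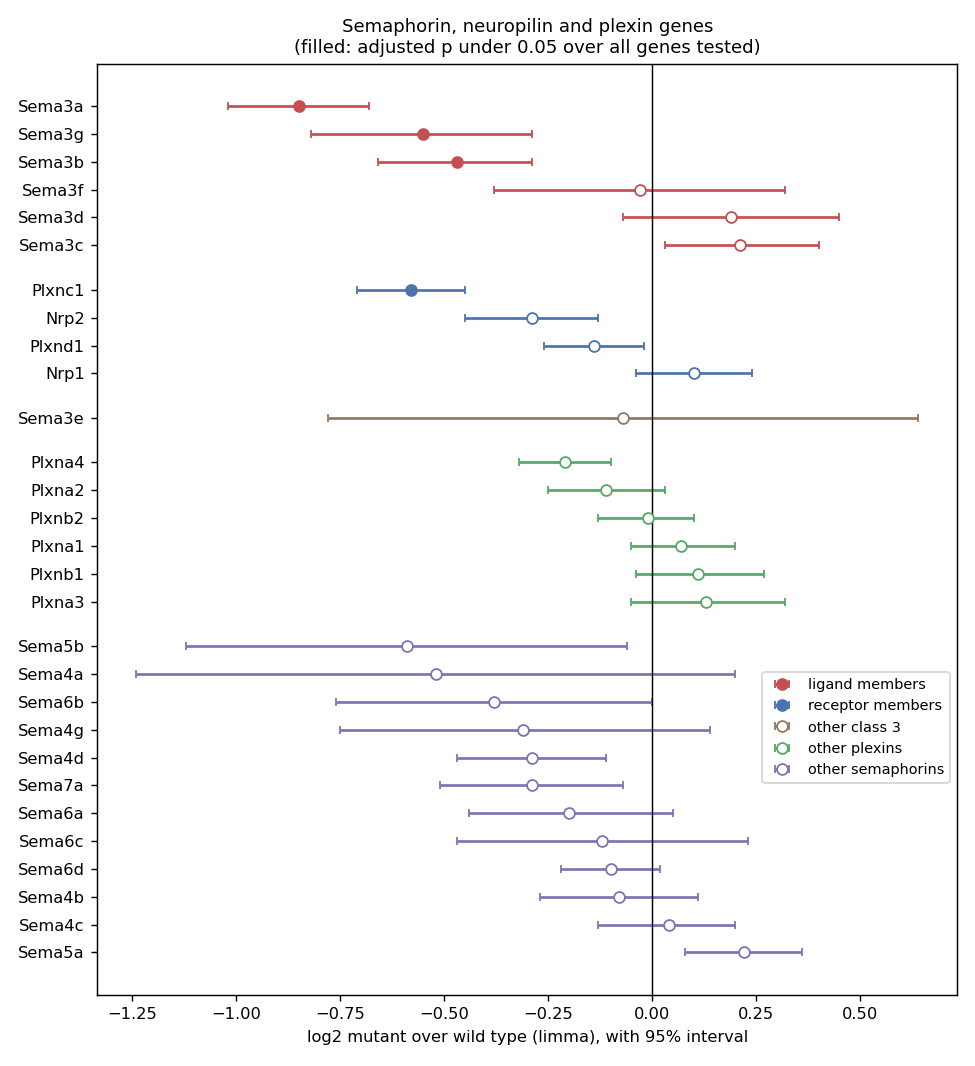
Log2 difference of mutant over wild type with its 95% interval (horizontal axis) for the 10 members and for 19 other semaphorin and plexin genes tested (rows, coloured by group); filled points passed an adjusted p under 0.05 over all genes. The 4 filled points are Sema3a, Sema3g, Sema3b and Plxnc1.

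The rest of the family was compared through a list of 21 semaphorin and plexin genes, of which 19 were tested. In limma 0 were called higher and 0 lower. At an unadjusted p under 0.05, 1 was higher and 4 were lower, against 954 and 1079 of all 13740 genes. With voom weights 0 of the 19 were called in either direction. Their median log2 difference was −0.11, with 5 above and 14 below 0, against a median of 0 over all genes. Sema3e, the remaining class 3 ligand gene and the direct ligand of plexin D1, stood near the detection floor at 1.53 ± 0.298 CPM in wild type and 1.52 ± 0.503 CPM in mutants (SD, n = 4), on 6 to 20 counts. At this depth the 95% interval of its log2 difference ran from −0.78 to 0.64. Plxna4, an A-type plexin through which Sema3a signals, stood at 86.3, 88.8, 91.5 and 91.9 CPM in wild type and 77.5, 78.1, 75 and 80.1 CPM in mutants. The groups did not overlap, and the log2 difference of Plxna4 was −0.21 ± 0.05 (SE; adjusted p = 0.055 by limma). It was called under quantile scaling (adjusted p = 0.033 by limma). Plxna2, of the same class, stood at −0.11, Plxna1 at 0.07 and Plxna3 at 0.13 on the log2 scale, all with intervals that included 0.

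Among the membrane semaphorins 12 genes were tested and 0 called by limma, with 1 higher and 3 lower at an unadjusted p under 0.05 and 0 called with voom weights. Sema4d, whose product binds plexin B1, had the smallest p of this list. It stood at 36, 33.3, 29.1 and 30.8 CPM in wild type and 24.9, 27.9, 24.8 and 27.9 CPM in mutants, a log2 difference of −0.29 ± 0.08 (SE; adjusted p = 0.098 by limma). The most abundant was Sema6d, known for its role with plexin A1 in the heart, at 131 ± 8.14 CPM in wild type and 122 ± 5.3 CPM in mutants (SD, n = 4). The groups overlapped, and its log2 difference was −0.1, with a 95% interval of −0.22 to 0.02. Sema6d was singled out after its values were seen.

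Of 54 partner genes, 49 were tested, and 1 was called higher and 2 lower, beside 0.99% and 1.25% of all genes tested. The median log2 difference of the 49 was 0.02. Coreceptors and neuropilin partners gave 0 calls among 13 tested genes in limma. At an unadjusted p under 0.05, 0 were higher and 5 lower, against 954 and 1079 of all 13740 genes. With voom weights 0 of the 13 were called. The smallest p was that of Flt4, the lymphatic growth factor receptor that pairs with neuropilin 2, at 37 ± 3.37 CPM in mutants and 44.6 ± 1.55 CPM in wild type (SD, n = 4; adjusted p = 0.081 by limma). Flt4, Kdr and Flt1 are among these 5 lower genes and are also on the endothelial marker lists above. The pan-endothelial list and the venous and lymphatic list share Emcn, so the lists are not separate observations. Vegfa, the growth factor that shares neuropilin 1 with Sema3a, stood at 0.06 ± 0.08 on the log2 scale (SE), not called. Effectors inside the cell gave 1 call in each direction among 31 tested genes. Limk2, a kinase that acts on cofilin, rose from 93 ± 3.45 to 116 ± 10.1 CPM (SD, n = 4; adjusted p = 0.0192 by limma). The call of Limk2 was lost without mutant replicate 4 or wild-type replicate 1 or 2, at adjusted p values by limma from 0.0514 to 0.0778.

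Fes, a tyrosine kinase that acts with A-type plexins, fell from 13.9 ± 0.761 to 10.1 ± 1.11 CPM (SD, n = 4; adjusted p = 0.0405 by limma). Its call was kept only without mutant replicate 4 and was lost in the other 7 fits that left a library out, with adjusted p values by limma from 0.0544 to 0.12. Proteases that process semaphorins gave 1 lower and 0 higher among 5. Adamts1, a metalloprotease that can release Sema3c, fell from 112 ± 3.36 to 95.3 ± 3.19 CPM (SD, n = 4; adjusted p = 0.0303 by limma). That call was kept without mutant replicate 1 or 3 and lost in the other 6 fits, with adjusted p values by limma from 0.0736 to 0.12. Furin, the main convertase of class 3 semaphorins, stood at −0.08 ± 0.08 on the log2 scale (SE), not called.

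**Figure D4:**
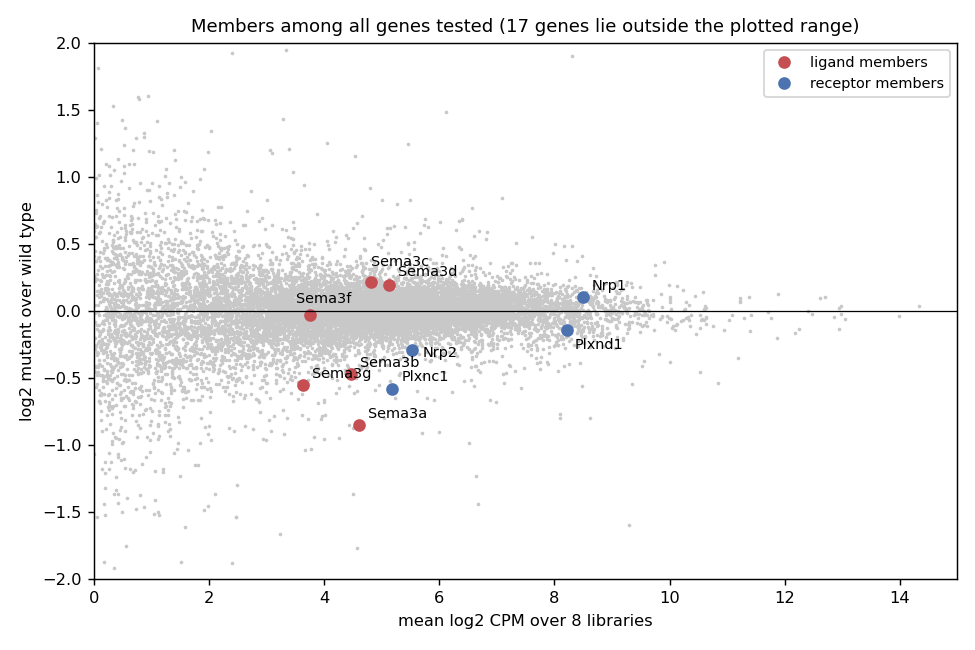
Log2 difference of mutant over wild type (vertical axis) against mean log2 CPM over the 8 libraries (horizontal axis) for the genes tested (grey; 17 lie outside the plotted range), with the ligand members in red and the receptor members in blue. Sema3a lies lowest of the members at −0.85, and Nrp1 is the most abundant member.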

How the data were processed

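RNA from ventricle pools was sequenced, 4 libraries per genotype. The submitters' processing notes name cutadapt 1.2.1, RSEM 1.16, Bowtie2 0.12.7 (the version they print), limma, edgeR and mm9, with no order. The deposited values are a score. From the values themselves, they behave as log2 CPM with a prior of 0.5 counts multiplied by a constant per library, 15.9683 to 16.0735. Dividing by it gave log2 CPM, and 100% of the implied counts were whole within 0.001. Symbols matched 13428 of 13869 identifiers (GENCODE M21). Gene positions on mm9 are not given. The upstream windows and their coordinates come from RefSeq on GRCm38.p6, a build other than that of the counts, and the gene order also comes from RefSeq.

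The fit was made in limma 3.58.1 (R 4.3.3; lmFit, eBayes with trend) with genotype as its only term, on the 13740 genes whose log2 CPM averaged 0 or more. Tests were two-sided, with Benjamini-Hochberg adjustment over all of these. The scripts were tested on simulated data. Replicate numbers were not used as pairs. The members, lists and tests were chosen with earlier results of these data known. Genes named are the members, the called genes of the family and partner lists (up to 5 per partner list) or the one of smallest p where none was called, Mib1, Pecam1, Cdh5 and Tnnt2. Any other gene was chosen after its values were seen. The 21 alternatives covered the pseudocount, filter, scaling, variance model, voom weights, a replicate block and each library left out. The recovered counts gave the CPM levels, their spread, the per kb values, shares and ratios. They were also used for the voom weights and for the pseudocount and some scaling alternatives. The main fit used the log2 CPM, and no negative binomial count model was fitted. Intervals cover the spread between pools, and floors cover counting error only.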

Additional observations from a re-analysis of the deposited data

Results flagged for a closer look

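One value among the named genes lay apart from the other libraries of its group by the ratio of Dixon, out of 42 groups of 4 libraries examined; chance flags about 1 in 20. Sema3e in mutant replicate 2 stood at 0.763 CPM, from 6 counts, against 1.74 to 1.8 CPM in the other mutant libraries. At this level counting alone gives a coefficient of variation of 28.3% in mutants.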

How the results depend on the processing

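Of 440 values of the 21 named genes under the 21 alternatives, 403 kept their direction and side of the threshold, 28 lost the call, 5 gained it and 4 changed sign. Sema3a, Sema3b and Plxnc1 kept their calls in all 21. Sema3g lost its call in 7, at adjusted p values by limma of 0.0741 with no variance trend and 0.0698 with the replicate block beside the 5 given above. The sign changes were in genes near 0 that were not called, Sema3f from −0.13 to 0.16 and Sema3e from −0.21 to 0.22 with a library left out. With no variance trend 70 genes were called higher and 109 lower, against 136 and 172. With a library left out 64 to 208 were called higher and 81 to 269 lower, the highest counts without mutant replicate 3 and the lowest without wild-type replicate 2 (higher) and 1 (lower). Among other semaphorin and plexin genes, quantile scaling gave 1 call (Plxna4, lower). Partner genes called higher numbered 0 with no variance trend and 0 to 2 with a library left out, and those called lower 1 with the deposited scaling or no variance trend, 0 with the replicate block and 0 to 1 with a library left out. The cause of these changes was not tested. With the replicate number as a block, 104 genes were called higher and 136 lower; libraries sharing a number correlated at −0.04 to 0.1 after removal of group means, 0 mutant libraries and 1 wild-type library resembled that of its own number best, and the numbers were not taken as pairs. No scaling moved the median of all genes by more than 0.01. Depth limits Sema3e, on 6 to 20 counts per library.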

Other observations

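Pools of a group differed from each other by unequal amounts across the members. In mutants the coefficient of variation of Nrp1 was 9.65% where counting alone gives 1.8%, and that of Plxnd1 was 7.98% where counting gives 2.08%. In wild type the same genes had 4.01% and 2.56%. Sema3d had 19.3% in mutants and 10.7% in wild type, where counting gives 5.63% and 6.41%. Sema3f had 23.6% and 10.1%, where counting gives 9.66% and 9.92%, so its wild-type spread was about that of counting. Sema3a, at 4.32% and 6.81%, and Sema3b, at 7.52% and 5.59%, varied by about as much as counting gives or less, 8.24% and 6.42% for Sema3a and 8.12% and 7.19% for Sema3b.

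Mutant replicate 1, the library with the most counts, was the highest mutant library for Sema3c, Sema3d, Nrp1 and Plxnc1 and the lowest for Sema3b, Sema3f, Sema3g and Plxnd1. Every gene has 1 highest and 1 lowest library among the 4 of a group. Such places over all genes are not given here, so nothing is read from their number. Mutant replicate 3 was the highest for 3 and the lowest for 4, and mutant replicate 2 the highest for 1 and the lowest for 0. Whether depth has a part in these places was not tested.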
